A study of Mus musculus with 2 samples.

Results

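The genes of glycolysis and of the cellular response to low oxygen were followed between Bmi1 null and wild-type mouse embryonic fibroblasts (MEFs). The list held 49 genes picked by name for their known roles: 19 glycolytic enzymes and glucose transporters, 9 genes that decide the fate of pyruvate and lactate, 7 subunits and oxygen sensors of the hypoxia-inducible factor (HIF), and 14 HIF targets outside metabolism. Of these, 46 had a probe set annotated to exactly 1 gene, out of 18194 such genes on the array. No probe set of exactly 1 gene was found for Gpi1, Eno1 and Bnip3l.

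The series held 2 Affymetrix arrays, 1 of Bmi1 null MEFs and 1 of MEFs from wild-type littermates. Bmi1 is a subunit of the Polycomb complex that ubiquitylates histone H2A. Both lines were immortalised with a retrovirus expressing TBX2, a repressor of the Cdkn2a locus, were labelled C57BL/6 and male, and received no treatment. They grew in DMEM with serum; embryonic age, oxygen level and cell density at harvest are not given in the sources used here. Each group was 1 line on 1 array, so differences between genotypes and differences between individual lines cannot be told apart, and no test between groups was possible.

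Glycolysis splits glucose into pyruvate through a chain of enzymes, most of which exist as isoenzymes encoded by separate genes. Pyruvate is then either reduced to lactate and exported or passed to the mitochondrion by pyruvate dehydrogenase, an enzyme that pyruvate dehydrogenase kinases switch off. When oxygen is scarce, HIF alpha subunits escape hydroxylation by the Egln enzymes and the Vhl ubiquitin ligase, pair with Arnt and raise transcription of glycolytic genes together with genes of vessel growth, acid balance and collagen modification. HIF activity is set largely at the level of protein stability, which an array of RNA does not read.

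Values are MAS5 signals, linear and in arbitrary units, on arrays scaled to a trimmed mean of 500. A signal under a floor of 100 was set to the floor, which makes the ratio of such a gene a lower bound. Of the 46 genes, 41 were above the floor on both arrays, 3 (Slc2a3, Pdk1 and Slc16a3) only on the Bmi1 null array, and 2 (Pdk4 and Car9) on neither. In place of replicates, the spread of the log2 ratio between probe sets of the same gene gave an SD of 0.33 for signals from the floor to the trimmed mean, 0.28 for signals up to 4 times the trimmed mean and 0.20 for brighter signals. It covers the error of a probe set and leaves out the variation between cultures.

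Among the 44 measured members, 5 were at least 2-fold higher in Bmi1 null MEFs (Pdk1, Eno3, Plod2, Slc16a3 and Pfkfb3) and 2 were at least 2-fold lower (Adm and Ndrg1). Across all 11766 measured genes the shares at least 2-fold higher and lower were 5.73% and 5.16%, 10.9% in either direction, against 15.9% of the members. The members were chosen with earlier results of these data known, and Pdk1 and Slc16a3 passed the floor only on the array where they were high. The 2 shares are therefore given side by side without a test. Most of the list was close between the lines. Of the 41 members above the floor on both arrays, 31 differed by less than 1.5-fold, and in 18 the difference was within 1 SD of the probe-set error. The bound of Slc2a3 lay under 2-fold and leaves its size open. Of the 13 members beyond 2 SD of that error, 6 differed by less than 2-fold.

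**Figure D1:**
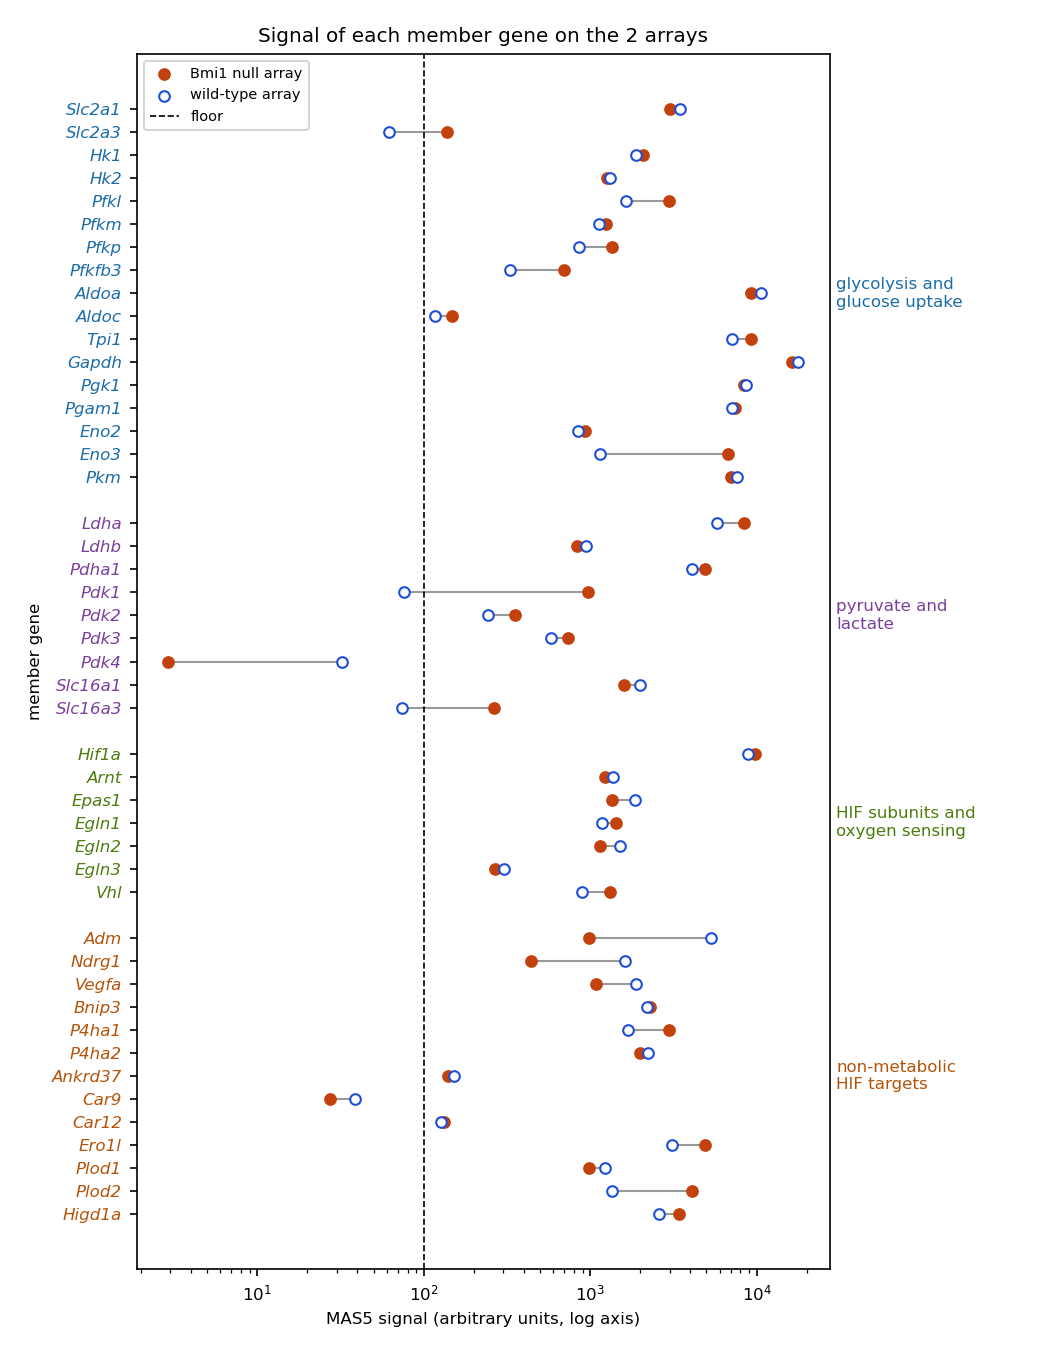
MAS5 signal (log axis, arbitrary units) of each matched member on the Bmi1 null array (filled) and the wild-type array (open), with the floor of 100 as a dashed line; each point is 1 array. Pdk1, Slc16a3 and Slc2a3 are above the floor only on the Bmi1 null array, and Pdk4 and Car9 are below it on both.

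The promoters shown are of the 4 members with the largest absolute log2 ratios among those with a promoter window. They were printed because the core of the hypoxia response element, the short motif that HIF binds, could be located in them. They are RefSeq windows of mouse build GRCm38.p6, from 250 bases before to 50 bases after the annotated start, printed along the plus strand of the genome, on which all 4 genes lie. Capitals mark the cores ACGTG and GCGTG or, where the core lies on the opposite strand, CACGT and CACGC. The windows are Pdk1 at chr2:71872974-71873273, Eno3 at chr11:70656926-70657225, Slc16a3 at chr11:120948817-120949116 and Adm at chr7:110627407-110627706.
Pdk1: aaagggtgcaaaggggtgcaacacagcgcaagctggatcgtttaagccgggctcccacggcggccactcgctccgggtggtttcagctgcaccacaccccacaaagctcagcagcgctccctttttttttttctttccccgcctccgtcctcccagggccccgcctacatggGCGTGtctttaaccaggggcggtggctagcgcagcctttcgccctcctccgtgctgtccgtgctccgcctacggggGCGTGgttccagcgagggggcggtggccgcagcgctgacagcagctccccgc
Eno3: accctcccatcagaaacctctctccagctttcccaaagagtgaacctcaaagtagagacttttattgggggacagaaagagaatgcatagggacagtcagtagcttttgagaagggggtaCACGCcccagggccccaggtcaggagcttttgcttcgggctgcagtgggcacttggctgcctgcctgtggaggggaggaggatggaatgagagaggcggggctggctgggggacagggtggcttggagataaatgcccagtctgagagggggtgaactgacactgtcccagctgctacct
Slc16a3: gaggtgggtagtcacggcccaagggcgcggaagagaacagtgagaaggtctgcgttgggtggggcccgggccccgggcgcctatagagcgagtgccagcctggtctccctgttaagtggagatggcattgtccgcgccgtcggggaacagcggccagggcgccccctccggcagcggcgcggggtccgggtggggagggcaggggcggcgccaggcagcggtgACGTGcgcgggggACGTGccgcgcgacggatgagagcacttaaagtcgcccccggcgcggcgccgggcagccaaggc
Adm: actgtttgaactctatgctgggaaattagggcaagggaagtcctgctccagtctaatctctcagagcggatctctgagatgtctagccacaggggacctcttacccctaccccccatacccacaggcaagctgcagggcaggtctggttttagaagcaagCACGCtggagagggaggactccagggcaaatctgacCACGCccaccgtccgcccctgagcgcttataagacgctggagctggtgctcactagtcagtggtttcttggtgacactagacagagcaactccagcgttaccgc

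Pdk1 held cores 78 and 2 bases before the start, Eno3 held 1 core 130 bases before it, Slc16a3 held cores 27 and 14 bases before it, and Adm held cores 90 and 54 bases before it. The windows of Pdk1 and Slc16a3, higher in Bmi1 null MEFs, and of Adm, lower in them, thus each held 2 cores. A window was given for 42 of the 46 matched members, and the most upstream was taken where a gene had several, as 11 did. At least 1 core, on either strand, stood in 34 of the 42 windows (81.0%), against 63.3% of the 9526 windows of measured genes and 43.8% of the 27025 windows of all genes. A CACGTG palindrome counts as a core on each strand. All 9 pyruvate and lactate genes had a core, as did 11 of 16 glycolytic genes, 5 of 6 HIF subunits and sensors and 9 of 11 other targets. By difference between the lines, the counts were 4 of 4 members at least 2-fold higher, 1 of 1 at least 2-fold lower and 27 of 35 under 2-fold. Such a match is a description of the letters and no measure of binding.

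**Figure D2:**
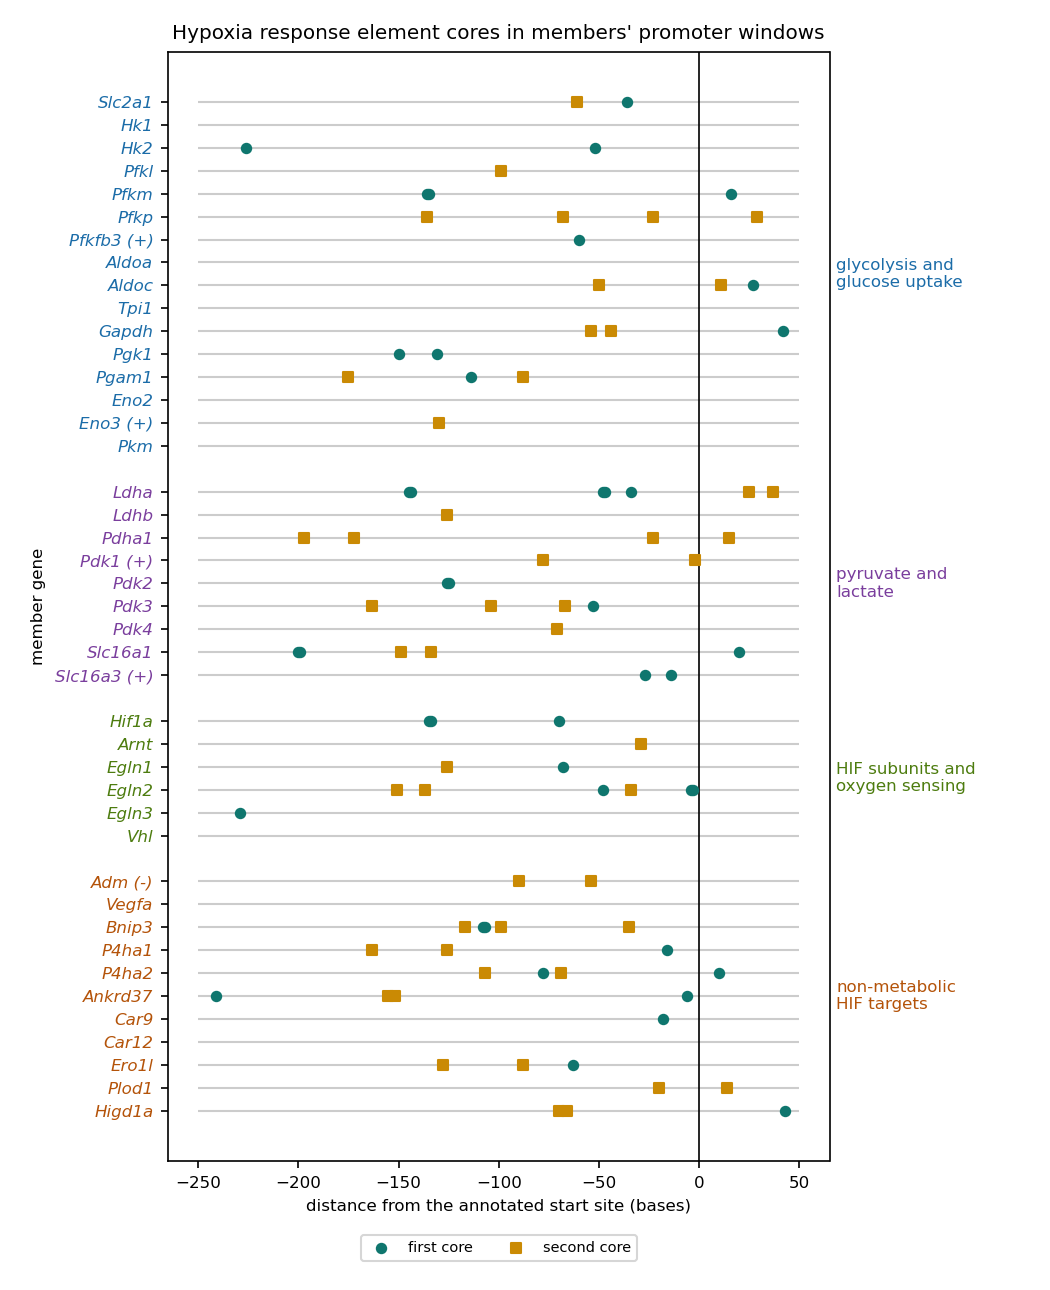
Position of the cores ACGTG (circles) and GCGTG (squares), either strand, against the annotated start site in bases, for the 42 members with a window. Members marked (+) or (-) were at least 2-fold higher or lower in Bmi1 null MEFs; cores stand in 34 windows, among them those of Ldha, Slc16a1 and Bnip3, which differed by less than 2-fold.

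Glucose enters fibroblasts mainly through the transporter Slc2a1, whose signal was 3025 in Bmi1 null MEFs and 3456 in wild-type MEFs, 1.14-fold lower. Its other probe sets were 1.46-fold and 1.62-fold lower. Slc2a3, a high-affinity transporter best known in neurons, had 139 in Bmi1 null MEFs and 62.2 in wild-type MEFs, at least 1.39-fold higher, while the other 3 read under the floor on both arrays. Hexokinases trap glucose in the cell by phosphorylation. Hk1 had 2070 in Bmi1 null and 1891 in wild-type MEFs, 1.09-fold higher, and a second probe set read 785 in Bmi1 null and 605 in wild-type MEFs, 1.30-fold higher. The HIF-responsive Hk2 had 1269 in Bmi1 null and 1308 in wild-type MEFs, within the probe-set error.

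Phosphofructokinase commits the sugar to glycolysis and is built from subunits of 3 genes, which differed in size of change. The liver-type subunit Pfkl had 2987 in Bmi1 null and 1653 in wild-type MEFs, 1.81-fold higher. A second Pfkl probe set was 1.60-fold higher, while the third, at 121 in Bmi1 null and 140 in wild-type MEFs, was close to the floor. The platelet-type subunit Pfkp had 1349 in Bmi1 null and 861 in wild-type MEFs, 1.57-fold higher, with a dimmer probe set at 264 in Bmi1 null and 268 in wild-type MEFs. The muscle-type subunit Pfkm had 1247 in Bmi1 null and 1129 in wild-type MEFs, 1.10-fold higher and within the probe-set error. Pfkfb3, which makes the activator fructose 2,6-bisphosphate, had 701 in Bmi1 null and 330 in wild-type MEFs, 2.13-fold higher. Its other probe set, at 117 in Bmi1 null and 114 in wild-type MEFs, showed no such difference, and 592 of the 11766 measured genes had a ratio as high as that of Pfkfb3 or higher. With the mean over both probe sets the log2 ratio was 0.56, under 2-fold.

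The abundant enzymes of the lower pathway lay close together on the 2 arrays. Aldolase A (Aldoa) had 9251 in Bmi1 null and 10705 in wild-type MEFs, and its 5 probe sets were 1.03-fold to 1.16-fold lower. Triosephosphate isomerase (Tpi1) was the exception among them, with 9255 in Bmi1 null and 7126 in wild-type MEFs, and its 3 probe sets were 1.30-fold to 1.44-fold higher. Gapdh, read here by the array's own control probe sets, had 16234 in Bmi1 null and 17738 in wild-type MEFs. Phosphoglycerate kinase (Pgk1), a classical HIF target, had 8378 in Bmi1 null and 8674 in wild-type MEFs, a difference of 1.04-fold. The mutase Pgam1 had 7440 in Bmi1 null and 7163 in wild-type MEFs. Pyruvate kinase (Pkm), the last step of the pathway, had 6976 in Bmi1 null and 7625 in wild-type MEFs. Aldolase C (Aldoc), a mainly neural isoenzyme, was near the floor at 149 in Bmi1 null and 117 in wild-type MEFs.

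Enolase, the step before pyruvate kinase, held the widest difference of the glycolytic group. Eno3, the isoenzyme of skeletal muscle, had 6702 in Bmi1 null MEFs and 1139 in wild-type MEFs, 5.89-fold higher, or 2.56 on the log2 scale. A ratio as high was seen in 120 of the measured genes (1.02%). Eno3 was read by a single probe set. The neural isoenzyme Eno2 had 930 in Bmi1 null and 844 in wild-type MEFs, and the log2 ratio of Eno3 exceeded that of Eno2 by 2.42. The ubiquitous Eno1 had no probe set to compare. Of 10 muscle markers, 5 were above the floor in Bmi1 null and 4 in wild-type MEFs, with summed signals of 1465 in Bmi1 null and 1371 in wild-type MEFs. Their ratios ran both ways: Tnnc1 had 596 in Bmi1 null and 235 in wild-type MEFs, 2.54-fold higher, and Acta1 had 237 in Bmi1 null and 514 in wild-type MEFs, 2.17-fold lower. Ckm was 1.65-fold lower, and Myod1, Myog, Tnnt3, Actn2 and Myh3 were below the floor on both arrays. Their part in the difference of Eno3 was not tested.

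Genes at the fork after pyruvate had the highest median of the 4 groups, 0.43 on the log2 scale over 8 measured members. Pdk1 and Slc16a3 entered it through the Bmi1 null array only, and Pdk4, below the floor on both arrays, was left out. With a pseudocount, which keeps Pdk4, the median was 0.29. Pdk1, a kinase that shuts pyruvate dehydrogenase, had 975 in Bmi1 null MEFs and 76.1 in wild-type MEFs, at least 9.75-fold higher. This was the largest difference among the members, and 55 measured genes (0.467%) had a ratio as high. Further probe sets of Pdk1 read 565 in Bmi1 null against 61.0 in wild-type MEFs, at least 5.65-fold, and 413 in Bmi1 null against 23.8 in wild-type MEFs, at least 4.13-fold. The remaining one gave no ratio, at 3.24 in Bmi1 null and 3.26 in wild-type MEFs.

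The sister kinases differed less. Pdk2 had 353 in Bmi1 null and 244 in wild-type MEFs, 1.45-fold higher, and Pdk3 had 737 in Bmi1 null and 585 in wild-type MEFs, 1.26-fold higher. The log2 ratio of Pdk1 exceeded that of Pdk2 by at least 2.75 and that of Pdk3 by at least 2.95. Pdk4, a kinase induced by fasting, was below the floor with 2.91 in Bmi1 null and 32.1 in wild-type MEFs. Pdha1, the subunit these kinases phosphorylate, had 4929 in Bmi1 null and 4066 in wild-type MEFs, 1.21-fold higher.

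On the lactate branch, Ldha, the subunit that favours lactate formation, had 8422 in Bmi1 null and 5758 in wild-type MEFs, 1.46-fold higher. Ldhb, the subunit that favours the reverse reaction, had 829 in Bmi1 null and 947 in wild-type MEFs, and the log2 ratios of its 4 probe sets ran from -0.58 to -0.19. The log2 ratios of Ldha and Ldhb differed by 0.74. Slc16a3, the HIF-responsive lactate exporter, had 265 in Bmi1 null MEFs and 74.3 in wild-type MEFs, at least 2.65-fold higher by its only probe set. With the floor raised to 0.4 times the trimmed mean, its lower bound fell to 0.40 on the log2 scale, which does not settle whether it reached 2-fold. Slc16a1, the widely expressed monocarboxylate carrier, had 1606 in Bmi1 null and 1998 in wild-type MEFs, 1.24-fold lower.

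**Figure D3:**
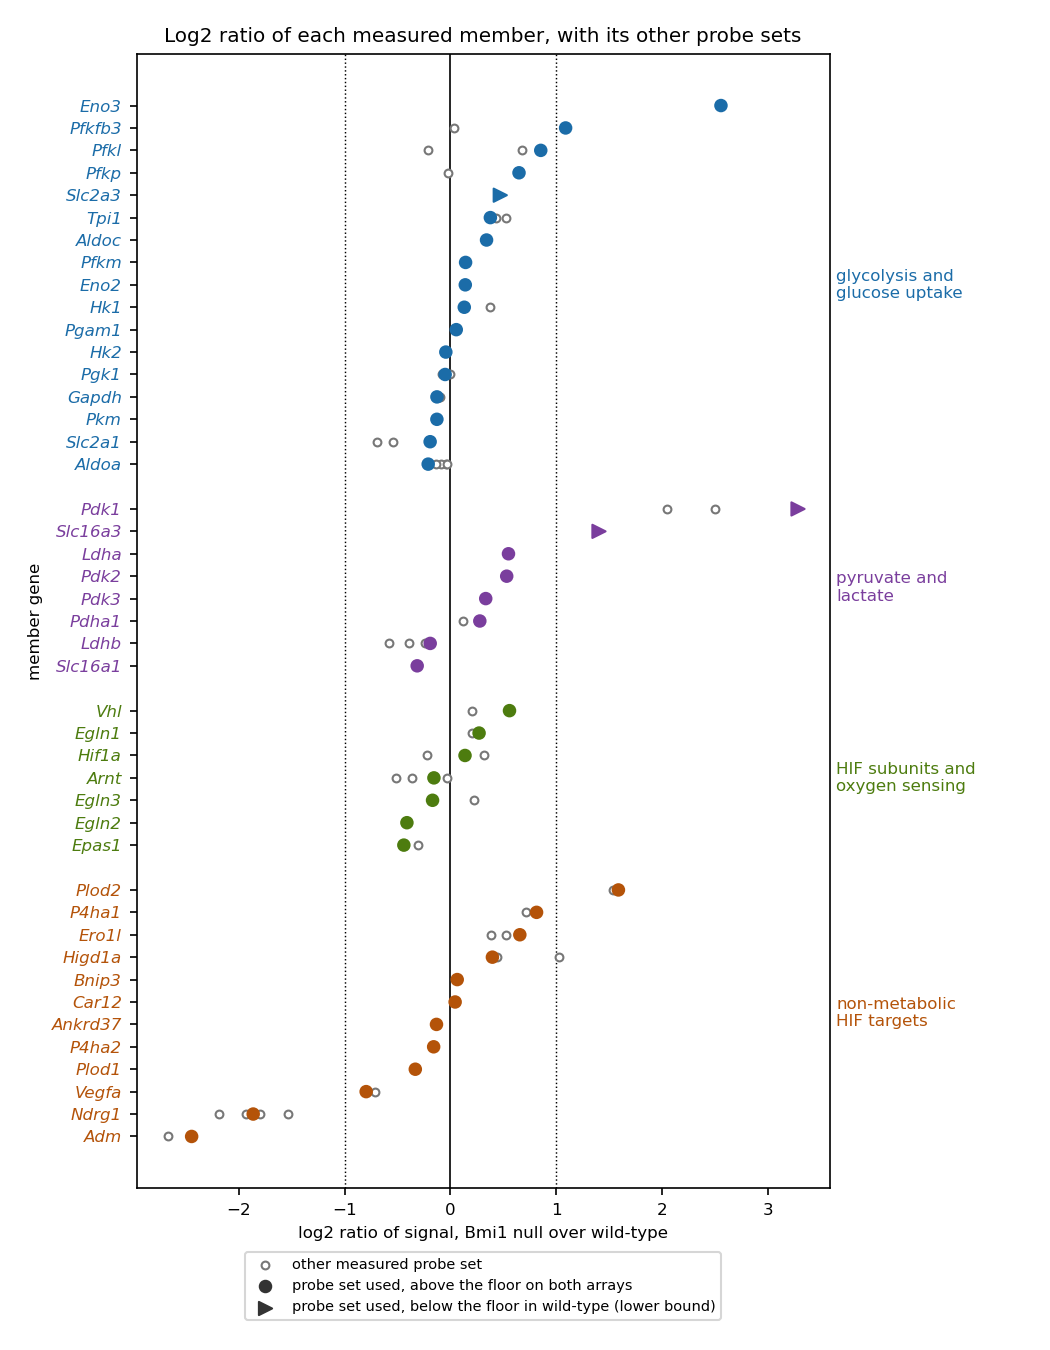
Log2 ratio of signal, Bmi1 null over wild-type, of the 44 measured members, sorted within their 4 groups. Filled circles are the probe set used, triangles are lower bounds with wild-type below the floor, open circles are other measured probe sets of the gene, and dotted lines mark 2-fold; Pdk1 (at least 3.29) and Eno3 (2.56) lie farthest to the right and Adm (-2.45) and Ndrg1 (-1.86) farthest to the left.

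The HIF subunits and oxygen sensors held no 2-fold difference among their 7 members, where 10.9% of all measured genes held one. Their median log2 ratio was -0.16, but 0.025 with the mean over probe sets. Hif1a, the oxygen-labile alpha subunit, had 9740 in Bmi1 null and 8855 in wild-type MEFs, 1.10-fold higher. Its other measured probe sets had opposite signs, with 2100 in Bmi1 null against 1687 in wild-type MEFs, and 657 in Bmi1 null against 765 in wild-type MEFs. The partner subunit Arnt had 1232 in Bmi1 null and 1373 in wild-type MEFs. The second alpha subunit, Epas1, had 1361 in Bmi1 null and 1848 in wild-type MEFs, 1.36-fold lower, with the other probe set 1.24-fold lower.

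The Egln prolyl hydroxylases, which mark HIF alpha subunits for destruction while oxygen is present, did not share a sign. Only the difference of Egln2 was beyond 1 SD of the probe-set error. Egln1 had 1425 in Bmi1 null and 1181 in wild-type MEFs, 1.21-fold higher but within the probe-set error. Egln2 had 1142 in Bmi1 null and 1519 in wild-type MEFs, 1.33-fold lower. Egln3, itself a HIF target, had 269 in Bmi1 null and 302 in wild-type MEFs, within the probe-set error. Its other probe set had the opposite sign, with 216 in Bmi1 null and 186 in wild-type MEFs. Vhl, which recognises the hydroxylated subunits, had 1310 in Bmi1 null and 890 in wild-type MEFs, 1.47-fold higher, and its other probe set was 1.15-fold higher.

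Outside metabolism, 6 of 12 measured HIF targets had a log2 ratio above 0 and 6 below it, with a median of -0.044. The share above 0 was thus near that of all measured genes, 50.6%. Adm, the vasodilator peptide adrenomedullin, had 979 in Bmi1 null MEFs and 5340 in wild-type MEFs, 5.45-fold lower, and its second probe set read 892 in Bmi1 null against 5676 in wild-type MEFs, 6.37-fold lower. Of all measured genes, 92 (0.782%) had a ratio as low. Ndrg1, a stress-responsive gene induced strongly by hypoxia, had 444 in Bmi1 null MEFs and 1618 in wild-type MEFs, 3.64-fold lower. Each of its 5 probe sets was lower, from at least 2.90-fold to 4.56-fold. Vegfa, the vascular growth factor, had 1087 in Bmi1 null and 1888 in wild-type MEFs, 1.74-fold lower, and 1.64-fold lower by its other probe set.

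Among the targets that modify collagen or fold secreted proteins, only Plod2 reached 2-fold. Plod2, the lysyl hydroxylase of collagen telopeptides, had 4095 in Bmi1 null MEFs and 1362 in wild-type MEFs, 3.01-fold higher, and 2.90-fold by its other probe set. The prolyl hydroxylase subunit P4ha1 had 2974 in Bmi1 null and 1692 in wild-type MEFs, 1.76-fold higher, and 1.64-fold by its other probe set. Ero1l, an oxidase of the endoplasmic reticulum that helps form disulfide bonds, had 4905 in Bmi1 null and 3113 in wild-type MEFs, 1.58-fold higher. Its other probe sets were 1.44-fold and 1.31-fold higher. The isoenzymes Plod1 and P4ha2 had the opposite sign. Plod1 had 980 in Bmi1 null and 1234 in wild-type MEFs. P4ha2 had 2004 in Bmi1 null and 2238 in wild-type MEFs, within the probe-set error. The log2 ratio of Plod2 exceeded that of Plod1 by 1.92, and that of P4ha1 exceeded that of P4ha2 by 0.97. Of the collagen genes among the fibroblast markers, Col3a1 had 20209 in Bmi1 null and 4617 in wild-type MEFs, 4.38-fold higher, Col1a1 had 14841 in Bmi1 null and 6860 in wild-type MEFs, 2.16-fold higher, and Col1a2 had 17030 in Bmi1 null and 15048 in wild-type MEFs, 1.13-fold higher. Their part in the difference of Plod2 and P4ha1 was not tested.

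Of the remaining targets, Bnip3, a mitochondrial protein of mitophagy, had 2289 in Bmi1 null and 2190 in wild-type MEFs. For its relative Bnip3l only probe sets shared with a pseudogene were present, and the brightest read 2837 in Bmi1 null and 3743 in wild-type MEFs. Higd1a, a mitochondrial inner membrane protein, had 3431 in Bmi1 null and 2607 in wild-type MEFs, 1.32-fold higher, with another probe set at 2.03-fold. Ankrd37 had 139 in Bmi1 null and 153 in wild-type MEFs. The carbonic anhydrases, which buffer acid at the cell surface, were low: Car12 had 132 in Bmi1 null and 128 in wild-type MEFs, and Car9 was below the floor with 27.5 in Bmi1 null and 38.8 in wild-type MEFs.

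Glycolytic genes and the other HIF targets were compared as groups. The median log2 ratio was 0.14 over 17 glycolytic genes (2 at least 2-fold higher, 0 lower) and -0.044 over 12 non-metabolic targets (1 higher, 2 lower), a difference of 0.18. Without probe sets of suffix s, x or a and control probe sets the glycolytic median was -0.044 and the difference 0.088, and over the alternatives the difference ran up to 0.27. Ratios ran from -0.21 to 2.56 among glycolytic genes and from -2.45 to 1.59 among the targets. Over all measured genes the median was 0.0060 and the quartiles were -0.29 and 0.30. At least 2-fold different in either direction were 11.8% of the glycolytic genes and 25% of the targets, against 10.9% of all measured genes. The glycolytic share was thus near that of all measured genes. With 1 array a group, genes are not replicates and the difference of the medians has no test.

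Further genes of the same pathways were taken from lists by role. Across all 11766 measured genes, 5.73% were at least 2-fold higher, 5.16% at least 2-fold lower and 10.9% in either direction. None of the 12 measured other components of the HIF pathway reached 2-fold, and their median log2 ratio was -0.098. The lowest ratios were those of Arnt2, a relative of Arnt, with 571 in Bmi1 null and 1115 in wild-type MEFs, and Cited2, which competes with HIF for its coactivators, with 6238 in Bmi1 null and 10789 in wild-type MEFs. Of 27 other measured HIF targets, 8 (29.6%) differed at least 2-fold, 3 higher and 5 lower, and the median was -0.23. The higher genes were Tgm2, a transglutaminase that crosslinks matrix (6880 in Bmi1 null, 903 in wild-type), the chemokine Cxcl12 (680 in Bmi1 null, 34.4 in wild-type) and the growth factor Tgfb3 (1573 in Bmi1 null, 387 in wild-type). Cxcl12 entered the count through the Bmi1 null array only, and its ratio is a lower bound. The lower genes were the secreted glycoprotein Stc1 (130 in Bmi1 null, 904 in wild-type), the lipase inhibitor Angptl4 (122 in Bmi1 null, 493 in wild-type), Edn1, Nfil3 and Hmox1. Of 14 other measured glycolytic isoenzymes and regulators, 13 differed by less than 2-fold and Ldhd, at 103 in Bmi1 null and 90.6 in wild-type MEFs, had only a lower bound (median 0.018). Of 9 measured genes listed with the pyruvate dehydrogenase complex and pyruvate carriers, 8 differed by less than 2-fold and 1 (11.1%) by at least 2-fold. The latter was Pcx, pyruvate carboxylase, with 320 in Bmi1 null and 865 in wild-type MEFs, 2.70-fold lower.

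**Figure D4:**
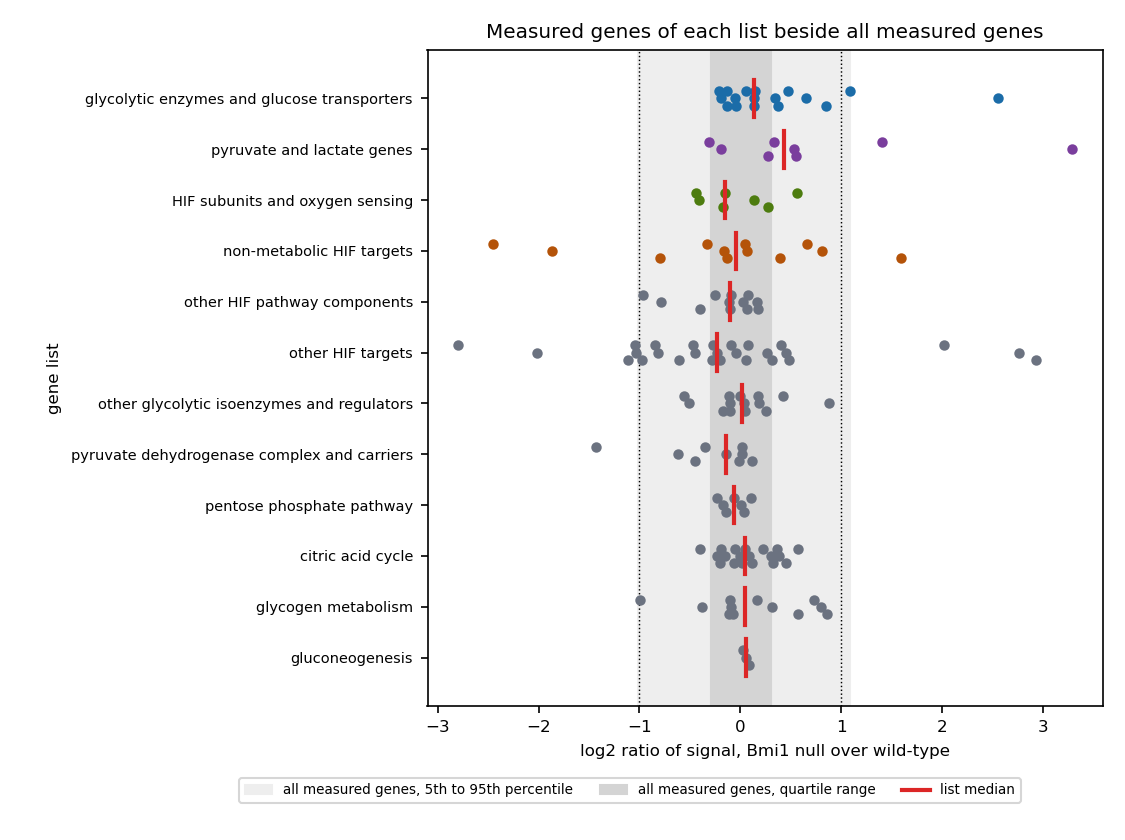
Log2 ratio of signal, Bmi1 null over wild-type, of each measured gene (points, lower bounds included) in the 4 member groups (coloured) and the other pathway lists (grey), with list medians as red bars. Shaded bands are the quartile range (-0.29 to 0.30) and the 5th to 95th percentile of all 11766 measured genes. The pyruvate and lactate median (0.43, with Pdk1 and Slc16a3 as lower bounds) lies outside the quartile range. Both lists of HIF targets spread beyond the dotted 2-fold lines on either side.

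The arrays were checked against their labels. Bmi1 had 2146 in Bmi1 null and 9933 in wild-type MEFs by its brighter probe set, 4.63-fold lower. The other Bmi1 probe set, however, had 831 in Bmi1 null and 931 in wild-type MEFs. The part of the gene each reads was not determined. Cdkn2a, at the locus that TBX2 represses, had 1415 in Bmi1 null and 331 in wild-type MEFs, 4.27-fold higher. Both lines were labelled male, yet the Y-linked genes Eif2s3y, Uty and Kdm5d were below the floor in Bmi1 null MEFs and between 712 and 1683 in wild-type MEFs, so sex chromosome content and genotype cannot be told apart. Of 10 fibroblast markers, 8 were above the floor on both arrays, Lum only in Bmi1 null MEFs (729, against 68.0 in wild-type MEFs) and Thy1 only in wild-type MEFs (50.7 in Bmi1 null, 375 in wild-type MEFs). With Col1a1 and Col3a1, 4 of the 10 differed at least 2-fold, and Dcn was 1.45-fold lower. Marker signal of other cell types was mostly low (Adipoq and Fabp4, Cdh1, and Ptprc were below the floor on both arrays). However, Lpl and Epcam were 6.37-fold and 5.59-fold higher in Bmi1 null MEFs. The neuronal Tubb3 was 2.70-fold lower, the blood cell marker Cd14 2.24-fold lower and the endothelial Cdh5 at least 2.08-fold lower. The measured neuron and glia markers ran both ways, with 3 log2 ratios above 0 and 2 below it. So did the endothelial markers, with 2 above 0 and 1 below it, while all 3 measured blood cell markers were below 0. Of 7 blood cell markers, 3 (Cd14, Csf1r and Adgre1) were above the floor on each array. Of 6 adipocyte markers, 2 were above the floor in Bmi1 null and 1 in wild-type MEFs, with summed signals of 7392 in Bmi1 null and 1233 in wild-type MEFs, and of 8 epithelial markers, 2 were above it on each array, with sums of 1295 in Bmi1 null and 512 in wild-type MEFs. Summed signals of 9 neuron and glia, 7 endothelial and 7 blood cell markers were 813, 405 and 875 in Bmi1 null MEFs and 852, 442 and 1560 in wild-type MEFs. The part of other cells in the members' differences was not tested. Ratios of 3' to 5' signal were 0.809 in Bmi1 null and 0.799 in wild-type MEFs for Gapdh and 1.15 in Bmi1 null and 1.20 in wild-type MEFs for beta-actin.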

How the data were processed

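Total RNA of the 2 lines was hybridised to Affymetrix mouse arrays of 45101 probe sets. The authors deposited MAS5 signal intensity values, linear and scaled per array; both columns had a 2% trimmed mean of 500. Microarray values carry no read depth, and the number of arrays, 1 per group, limits the precision. The annotation the authors used for the expression arrays is not given in the sources used here.

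Probe sets were named through the platform annotation: 34958 had 1 gene, 932 several and 9211 none, and only the first kind entered counts and ratios (the Bnip3l signals printed are from a shared probe set). Of the 49 members, 45 matched by symbol and 1 (Ero1l) by its synonym. Each gene was read by its probe set of highest mean log2 signal, signals under 0.2 times the trimmed mean were set to that floor, and genes under it on both arrays had no ratio. The log2 ratio is Bmi1 null over wild-type. With no replicates, members are described by counts at 2-fold and medians, beside all measured genes, with no p-value. Every matched member is named; of each other pathway list, up to 3 genes at least 2-fold different were to be named, largest first, and the further pathway genes named (among them Tgfb3, Angptl4, Arnt2, Cited2, Idh2, Sdhb, Gbe1 and Ppp1r3c), like the marker genes singled out, were chosen after their values were seen. Members and lists were chosen with earlier results of these data known. Alternatives were other floors, probe set choices and scalings. Promoter windows came from RefSeq (GRCm38.p6). The ratio code was tested on simulated data. Python 3.11.15, numpy 2.4.6, pandas 2.3.3 and scipy 1.17.1 were used.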

Additional observations from a re-analysis of the deposited data

How the results depend on the processing

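Under 9 alternatives (2 other floors, no floor, a pseudocount, 3 choices of probe set and 2 scalings), 4 to 6 members were at least 2-fold higher in Bmi1 null MEFs and 2 to 3 at least 2-fold lower. Without probe sets of suffix s, x or a and control probe sets, which left 33 members, the median log2 ratio was 0.044 over all members and -0.044 over the glycolytic genes, the glycolytic minus target difference was 0.088, and Pfkl was at -0.21. The pyruvate and lactate median was 0.29 with a pseudocount, and the median of HIF subunits and sensors was 0.025 with the mean over probe sets. With no floor, 2347 genes of the whole array passed 2-fold upward and 1580 downward. Pfkfb3 was under 2-fold with a pseudocount (0.90) and with the mean over probe sets (0.56). With a floor of 0.4 times the scaling value, the lower bound of Slc16a3 was 0.40, so it was no longer counted as 2-fold. Slc2a3 was over 2-fold (1.16) with 0.1 times or no floor. The cause of these shifts was not tested beyond what each setting changes. No paired analysis was possible because each group had 1 array, and no replicate could be left out. Signals near the floor limit what can be said of Slc2a3, Aldoc, Ankrd37 and Car12.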

Other observations

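Further genes of central carbon metabolism were counted by pathway. None of 19 measured genes of the citric acid cycle and 7 of the pentose phosphate pathway reached 2-fold, against 10.9% of all measured genes, and their median log2 ratios were 0.050 and -0.065. In the citric acid cycle the ends of the range were Idh2, mitochondrial isocitrate dehydrogenase, with 1517 in Bmi1 null and 1021 in wild-type MEFs, and Sdhb, a subunit of succinate dehydrogenase, with 4096 in Bmi1 null and 5393 in wild-type MEFs. Of 12 measured genes of glycogen metabolism, 11 differed by less than 2-fold, and ratios of the list ran from -0.99 to 0.86 with a median of 0.044. Gbe1, the glycogen branching enzyme, had 273 in Bmi1 null and 542 in wild-type MEFs, 1.99-fold lower, while the phosphorylase Pygb was 1.82-fold higher and the phosphorylase kinase subunit Phka1 1.75-fold higher. Ppp1r3c, which targets a phosphatase to glycogen, had 166 in Bmi1 null and 18.0 in wild-type MEFs, at least 1.66-fold higher, so whether it reached 2-fold is not known. In gluconeogenesis 3 genes were measured, 2 of them under 2-fold and Fbp1 with a lower bound only, at 102 in Bmi1 null and 58.3 in wild-type MEFs.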
